A study of Homo sapiens and Mus musculus with 13 samples.

Results

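Genes of glycolysis and of the cellular response to low oxygen were compared between mouse progenitor clones that carry mutant nucleophosmin and the parental progenitor line. The list holds 39 symbols, of which Pkm2 and Pkm name a single gene, and it matched 38 of the 37991 gene rows by symbol. The genes were listed by function and not by a threshold on these values, but with earlier results of these data known. They comprise 2 glucose transporters, 16 glycolytic enzymes, 5 regulatory kinases and lactate export genes, 4 oxygen sensing genes and 11 other hypoxia targets.

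The study sequenced RNA from a human acute myeloid leukaemia line under drug treatment (8 samples, not analysed here) and from a mouse haematopoietic progenitor line (5 samples). All 5 mouse libraries come from cells immortalized by HOXB8 and kept in RPMI-1640 with 1% stem cell factor conditioned medium from CHO cells and 1 uM beta-estradiol. In the knock-in group, CRISPR/Cas9 placed NPM1c, the cytoplasmic mutant of nucleophosmin (the design text writes NPM1ca-GFP), into this line, and 3 single-cell clones, titled 12, 18 and 4, gave 1 library each. The parental group, labelled wild-type, has 2 libraries, replicates 1 and 2, and no label says whether these are separate cultures. Each clone descends from 1 cell, and the labels describe no cloning of the parental line, so passage through a single cell and the mutation cannot be told apart. The column headers number the clones differently from the titles (4, 12 and 18 for titles 12, 18 and 4), and titles are used throughout.

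Values are normalized read counts, the reads per gene that the authors divided by a size factor for the library. The libraries held 7358340 to 12235174 reads, except parental replicate 2 with 99557475. Npm1, the targeted gene, was at 15141, 14144 and 14305 in clones 12, 18 and 4, against 25695 and 25714 in the parental libraries, with mutant and normal transcripts not separated. The progenitor markers Kit, Cd34, Ptprc, Myb, Flt3 and Hoxb8 all had substantial values, the lowest being 3496 for Flt3 in clone 4. In the whole comparison 2101 of 13132 genes passed (adjusted p under 0.05, limma), 986 higher and 1115 lower in the clones, and the median log2 difference was 0.01. Without clone 12 the total was 1023 and without parental replicate 2 it was 990, and without parental replicate 1 the split turned to 1230 higher and 576 lower.

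Glycolysis splits glucose to pyruvate in the cytosol, and lactate dehydrogenase turns pyruvate into lactate for export. When oxygen is scarce, the prolyl hydroxylases of the Egln family no longer mark the alpha subunit of hypoxia-inducible factor (HIF) for destruction, and HIF pairs with Arnt and induces its targets. These include most glycolytic enzymes, the glucose transporter Slc2a1, the kinase Pdk1, which inactivates pyruvate dehydrogenase, and genes of vessel growth, collagen modification and mitophagy. Haematopoietic stem cells live in marrow of low oxygen and are known for their reliance on glycolysis.

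Most of the list that changed was lower in the clones, and the largest falls were among hypoxia targets outside the glycolytic chain. Of the 38 genes, 34 reached the mean value of 10 needed for testing, and 15 passed, 13 lower and 2 higher. The background for that count was 16.0% of all genes tested, with 7.51% higher and 8.49% lower. The lower group held Slc2a1, Pfkm, Tpi1, Eno1, Ldha, Pdk1, Slc16a3, Hif1a, Vegfa, Ankrd37, P4ha1, Bnip3 and Ndrg1, and the higher group held Slc2a3 and Hk1. Over the 34 tested members the median log2 difference was -0.28, and 20 had every clone below both parental libraries, while 4 had every clone above. Among all genes tested these arrangements made up 25.8% and 24.5%. In bulk RNA, fewer cells of a type and less RNA per cell cannot be told apart. The count of 15 dropped to 7 without clone 12, and without parental replicate 1 the members split into 6 higher and 6 lower.

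**Figure D1:**
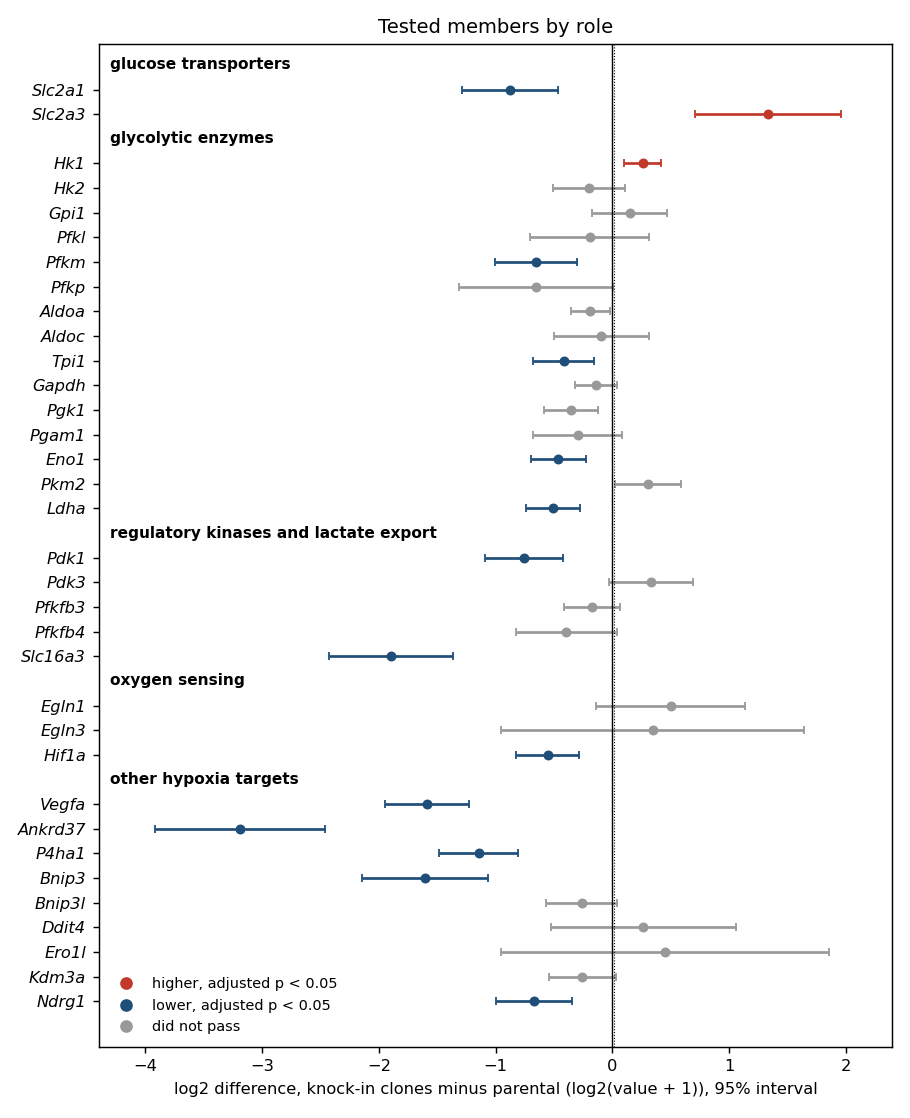
Log2 difference between knock-in clones and parental libraries for the 34 tested members, grouped by role, as points with 95% intervals from the limma fit on log2(value + 1). The dotted line is the median of all genes tested, and the colours mark members higher, lower or not past an adjusted p of 0.05. The points farthest to the left are Ankrd37, Slc16a3, Bnip3 and Vegfa, whereas the glycolytic enzymes lie between -0.65 and 0.31.

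Of the 11 other hypoxia targets, 9 were tested and 5 fell, beside 8.49% lower among all genes tested. Their median log2 difference was -0.67. Ankrd37 (ENSMUSG00000050914), an ankyrin repeat protein known as a sensitive HIF target, was at 24.6, 25.4 and 16.4 in clones 12, 18 and 4, against 263 and 162 in parental replicates 1 and 2. Every clone lay far below both parental libraries, and the fold was 9.11 on the log2(value + 1) scale (log2 difference -3.19, SE 0.313, adjusted p = 0.000949, limma). Vegfa (ENSMUSG00000023951), the main growth factor for blood vessels, was at 1045, 948 and 732 in the clones, against 2736 and 2680.2 in the parental libraries. The parental values lay close together and the clones were 3.01-fold lower (log2 difference -1.59, SE 0.155, adjusted p = 0.000928, limma).

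Bnip3 (ENSMUSG00000078566), which acts in mitophagy, was at 318, 266 and 256 in the clones, against 1098 and 656 in the parental libraries. The groups did not overlap, although parental replicate 1 was 1.67 times replicate 2, and the log2 difference was -1.60 (SE 0.230, adjusted p = 0.00486, limma). P4ha1 (ENSMUSG00000019916), a catalytic subunit of the collagen prolyl hydroxylase, was at 839.6, 755 and 706 against 1930 and 1483, without overlap (log2 difference -1.14, SE 0.146, adjusted p = 0.00269, limma). Ndrg1, a stress-responsive gene of differentiation, was at 984, 1238 and 1262 against 1969 and 1713. Its fall was smaller (log2 difference -0.67, SE 0.140, adjusted p = 0.0175, limma) and did not pass without clone 12 (0.0539), without parental replicate 1 (0.0786) or without a filter on low values (0.0546). By contrast, Ankrd37, Vegfa, Bnip3, P4ha1 and the lactate exporter Slc16a3 passed in each of the 14 alternative settings, including the fits without each library.

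**Figure D2:**
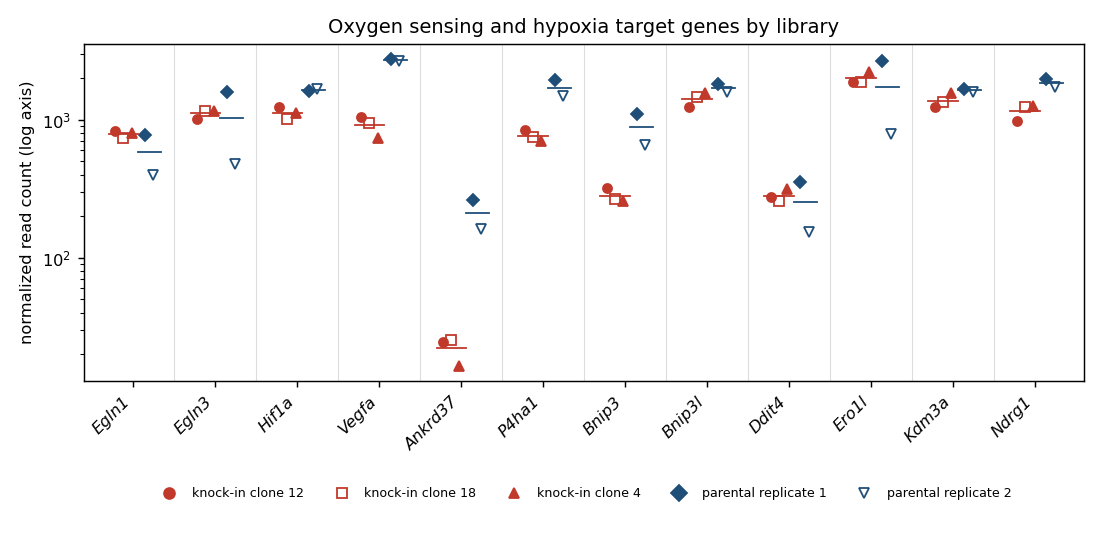
Normalized read counts on a log axis for the tested oxygen sensing and hypoxia target genes in the 3 knock-in clones (red) and the 2 parental libraries (blue), with short lines at group means. Vegfa, Ankrd37, P4ha1 and Bnip3 show every clone below both parental libraries, whereas the parental libraries of Egln3, Ddit4 and Ero1l stand on either side of the clones.

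The other 4 tested targets did not pass. Bnip3l, a relative of Bnip3 that also acts in mitophagy, was at 1245, 1450.4 and 1569 in the clones, against 1826 and 1580 in the parental libraries (log2 difference -0.26, 95% interval -0.57 to 0.04). Kdm3a, a histone demethylase, was at 1225, 1335 and 1551 against 1678 and 1582 (log2 difference -0.26, 95% interval -0.54 to 0.03). In these 2 genes every clone lay below the parental libraries, in part by a narrow margin. Ero1l, an oxidase of protein folding, was at 1866, 1878 and 2222 in the clones, against 2661 and 789.7 in the parental libraries. Ddit4, an inhibitor of mTOR signalling, was at 273, 257 and 314 against 351 and 154. For these last genes the parental libraries enclosed all 3 clones.

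The untested hypoxia targets had mean values under 10. P4ha2, another catalytic subunit of the collagen prolyl hydroxylase, was at 0, 0 and 2.05 in the clones, against 4.66 and 9.77 in the parental libraries. Every clone lay below both parental libraries, and a library held at most 64 reads of it. Adm, which encodes the vasodilator adrenomedullin, had a single read in all, in parental replicate 1.

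Among the oxygen sensing genes 1 of 3 tested members fell, beside 8.49% lower among all genes tested. Hif1a, the alpha subunit that is stabilized when oxygen is low, was at 1227, 1009.7 and 1122 in clones 12, 18 and 4, against 1603 and 1676 in the parental libraries. All clones lay below both parental libraries (log2 difference -0.55, SE 0.116, adjusted p = 0.0179, limma), a call lost without parental replicate 2 (0.0894). Egln1, the main HIF prolyl hydroxylase, was at 825, 732 and 796 against 775 and 395, and Egln3, a hydroxylase that HIF itself induces, was at 1018, 1146 and 1161 against 1575 and 481. Neither passed (adjusted p = 0.254 and 0.683, limma), and parental replicate 1 lay within the clones for Egln1 and above them for Egln3. Epas1, the alpha subunit of the related factor, was not tested and stayed at or below 4.76 in all 5 libraries.

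The parental libraries differed from each other in several of these genes, always in the same direction. In 8 of the 34 tested members replicate 1 was over 1.5 times replicate 2, and in 0 it was as far below, while 7.81% and 5.06% of all genes tested showed these gaps. Ero1l had the widest gap at 3.37 times, followed by Egln3 at 3.28, Ddit4 at 2.28, Egln1 at 1.96, Bnip3 at 1.67, Pfkl at 1.65, Ankrd37 at 1.62 and Slc16a3 at 1.60.

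The first 4 of these depended on which parental library was used. Without parental replicate 1 they were called higher in the clones, with log2 differences of 1.33 (Ero1l), 1.20 (Egln3), 0.86 (Ddit4) and 0.98 (Egln1) and adjusted p-values of 0.00291, 0.00381, 0.035 and 0.00817 (limma). Without parental replicate 2 the log2 differences of Ero1l, Egln3 and Ddit4 turned to -0.42, -0.51 and -0.32, and that of Egln1 was 0.02, none of them called. Replicate 2 is also the library with the most reads, and the part of depth in its values was not tested. Thinning it to the total of replicate 1 cannot decide this, because thinned reads are scaled back to about the same values. Ero1l, Egln3, Ddit4 and Egln1 were uncalled both with all reads and after thinning. Among the clones the highest was over 1.5 times the lowest in 3 of the 34 members, Pfkp (1.92), Slc2a3 (1.67) and Ankrd37 (1.55). The share of all genes tested with such a range was not computed. In some members, Pfkp and Vegfa among them, the clones spread more than the parental pair, and in others less.

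**Figure D3:**
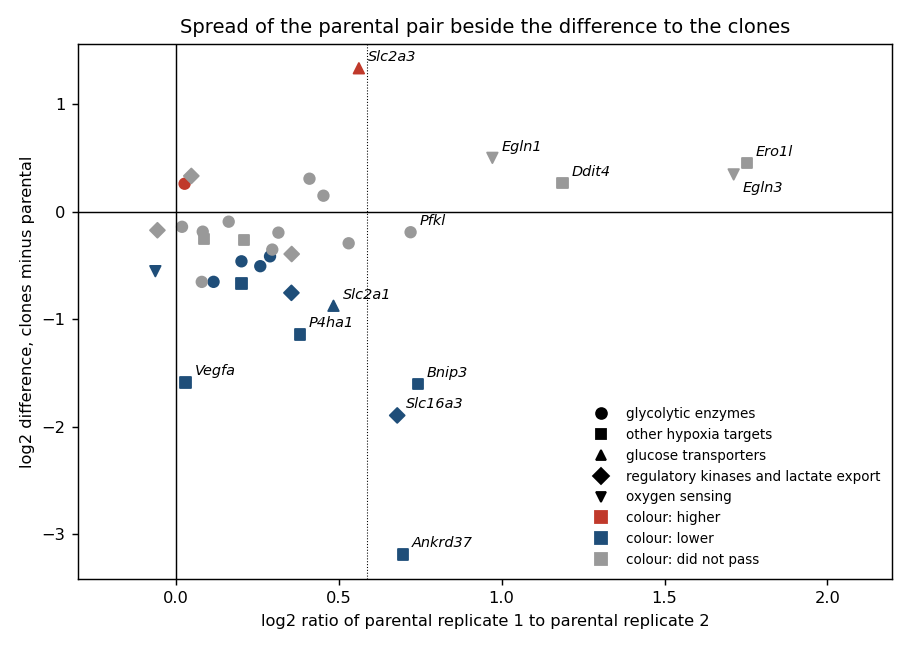
Each tested member's log2 ratio of parental replicate 1 to replicate 2 (x axis, dotted line at 1.5 times) and its log2 difference between clones and parental libraries (y axis), with shape for role and colour for the call. Ero1l, Egln3, Ddit4 and Egln1 lie far to the right without a call, while Vegfa lies near 0 on the x axis and at -1.59 on the y axis.

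The 2 glucose transporters changed in opposite directions. Slc2a1 (GLUT1), the widely expressed transporter, was at 433, 444 and 371 in clones 12, 18 and 4, against 901 and 645 in the parental libraries. The clones were 1.83-fold lower (log2 difference -0.88, SE 0.179, adjusted p = 0.0162, limma). Slc2a3 (GLUT3), a transporter of high glucose affinity, was at 758, 701 and 455 in the clones, against 299.9 and 203 in the parental libraries, 2.52-fold higher (log2 difference 1.33, SE 0.266, adjusted p = 0.0170, limma). Neither gene had overlapping groups.

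Within each library the ratio of the Slc2a1 value to the Slc2a3 value was 0.571, 0.633 and 0.815 in the clones and 3.01 and 3.17 in the parental libraries. These ratios are not corrected for transcript length, so they show a shift between libraries and not which transporter is more abundant. The Slc2a1 call was lost without clone 12 (adjusted p = 0.0565) and without parental replicate 1 (0.0576), and that of Slc2a3 without clone 12 (0.0633), clone 18 (0.0582) or parental replicate 2 (0.0814) and without a filter on low values (0.0541).

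Glycolytic enzymes moved less than the hypoxia targets. Of 16 genes, 15 were tested, 4 were lower, 1 was higher and 10 did not pass. That share of 33.3% called stood beside 16.0% of all genes tested. The median log2 difference of the enzymes was -0.20 and became -0.50 without parental replicate 2. A test of the difference between these groups of genes was not made. The number that passed was 1 without clone 12, without parental replicate 1 or without a filter on low values, 3 without clone 18 or clone 4, and 4 without parental replicate 2.

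At the entry step Hk1, the hexokinase of most tissues, was at 14454, 13960.2 and 14953 in the clones, against 12186 and 11966 in the parental libraries. The rise was slight (log2 difference 0.26, SE 0.0694, adjusted p = 0.0429, limma) and did not pass when any single library was left out (0.0615 to 0.182) or without a filter on low values (0.0547). Hk2, the hexokinase that HIF induces, was at 881, 872 and 800.1 against 1086 and 873, with overlap (log2 difference -0.20, 95% interval -0.50 to 0.11). Gpi1, which converts glucose phosphate to fructose phosphate, overlapped too, at 6675, 7658 and 6897 against 7459 and 5451.

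Phosphofructokinase commits sugar to glycolysis and has 3 genes. Pfkm, the muscle type, was at 650.0, 495 and 597 in the clones, against 945 and 872 in the parental libraries (log2 difference -0.65, SE 0.150, adjusted p = 0.0244, limma). It did not pass without clone 18 (0.0509), parental replicate 1 (0.0864) or parental replicate 2 (0.0692), nor without a filter on low values (0.0593). Pfkp, the platelet type, had the same estimated difference of -0.65 but clones that ranged from 2214 to 4259, at 3058, 4259 and 2214 against 4958 and 4694. It did not pass (adjusted p = 0.163, limma) except without clone 18 (0.0220). Pfkl, the liver type, was at 931, 872 and 751 against 1243 and 754, and the groups overlapped.

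In the middle of the chain Aldoa, the main aldolase, was at 28177, 31311 and 29242 in the clones, against 34598 and 32687 in the parental libraries. All clones lay below, yet the difference of -0.19 did not pass (adjusted p = 0.122, limma). Aldoc was low and overlapping, at 138 to 168 in the clones and 156 to 174 in the parental libraries. Tpi1, which interconverts the triose phosphates, fell from 7913 and 6478 to 5343, 5819 and 4971 (log2 difference -0.42, SE 0.112, adjusted p = 0.0440, limma). That call was lost without any one of clones 12, 18 and 4 or parental replicate 1 (0.131, 0.0523, 0.0691 and 0.205), without a filter (0.0995) and with library totals as the scaling (0.0522). Gapdh, often used as a reference gene, was at 24705, 28008 and 24833 against 28642 and 28281 (log2 difference -0.14, 95% interval -0.32 to 0.04).

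Pgk1, which makes the first ATP of the chain, was at 6017, 6039 and 6302 in the clones, against 8659 and 7055 in the parental libraries. It lay at the threshold (adjusted p = 0.0525, limma) and passed with edgeR on the recovered reads (0.0442) and with DESeq2 (0.0220). With limma it passed with a filter at 50 (0.0484) or with parental replicate 2 thinned (0.0330). The log2 difference was -0.35, and it was -0.50 without parental replicate 2 and -0.21 without parental replicate 1. Pgam1, a mutase, overlapped between groups, at 2835 to 3351 in the clones and 3091 to 4464 in the parental libraries. Reads of these 2 genes can be shared with near-identical copies: Pgam1-ps2 averaged 46.5% of the Pgam1 value and Pgk1-rs7 averaged 25.0% of the Pgk1 value over the 5 libraries.

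At the end of the chain Eno1, the main enolase, fell from 28760.5 and 25023 to 18902, 21689 and 18006 (log2 difference -0.46, SE 0.101, adjusted p = 0.0206, limma). The call was lost without clone 12 (0.0840), without parental replicate 1 (0.104) and without a filter on low values (0.0616). Eno2, the neuronal enolase, had at most 8 reads in a library and was not tested. Pkm2, as the files name the pyruvate kinase gene Pkm whose splice forms they do not separate, was at 12607, 13825 and 13585 in the clones, against 12428 and 9355 in the parental libraries. It did not pass (log2 difference 0.31, adjusted p = 0.137, limma) except without parental replicate 1 (0.0215), and clone 12 and parental replicate 1 nearly met.

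Ldha, which makes lactate, was at 9203, 10202 and 10446 in the clones, against 15450 and 12914 in the parental libraries. The clones were 1.42-fold lower without overlap (log2 difference -0.51, SE 0.101, adjusted p = 0.0147, limma), and the call was lost without clone 12 (0.0623) or parental replicate 1 (0.0693). Reads on the pseudogene Ldha-ps2 averaged 0.801% of the Ldha value.

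**Figure D4:**
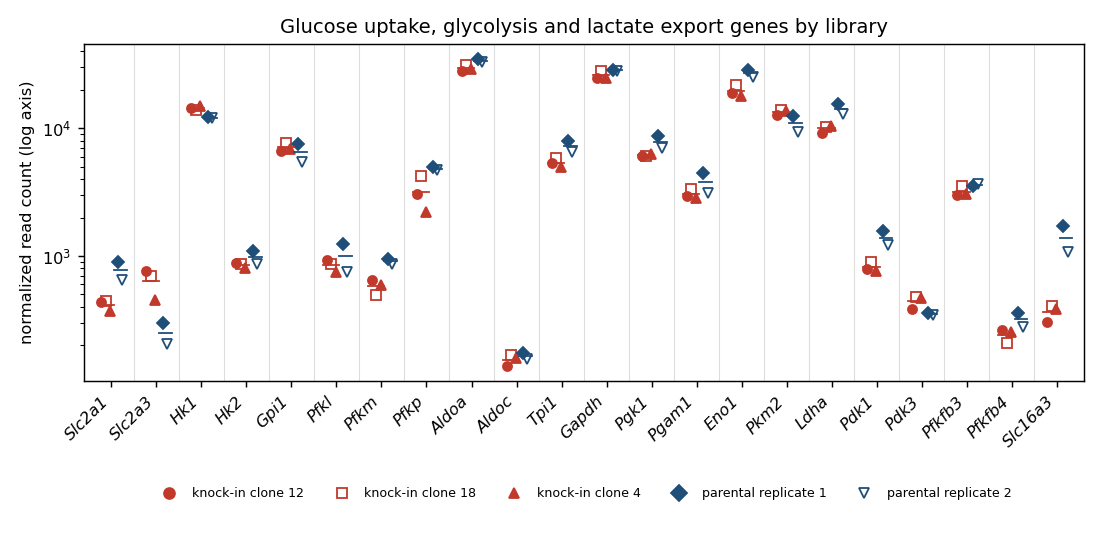
Normalized read counts on a log axis for glucose transporters, glycolytic enzymes in pathway order, regulatory kinases and the lactate exporter Slc16a3, in the 3 knock-in clones (red) and the 2 parental libraries (blue), with short lines at group means. Slc2a1 and Slc2a3 separate in opposite directions, most enzymes lie close together in all libraries, and Slc16a3 at the right shows the widest separation.

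The glycolytic enzymes together took 0.894%, 0.994% and 0.905% of all reads in clones 12, 18 and 4, and 1.12% and 0.985% in parental replicates 1 and 2. The 95% Wilson intervals, which cover counting error only, were 0.889% to 0.899%, 0.988% to 1.00%, 0.898% to 0.912%, 1.11% to 1.12% and 0.983% to 0.987%. Clone 18 and parental replicate 2 thus had nearly the same share, and the groups overlapped.

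Of the 5 regulatory kinases and lactate export genes 2 were lower and 3 did not pass, where 8.49% of all genes tested were lower. Slc16a3 had the largest log2 difference of all metabolic members. Slc16a3 (ENSMUSG00000025161), the monocarboxylate transporter MCT4 that exports lactate, was at 304, 409 and 382 in the clones, against 1708 and 1066 in the parental libraries. The lowest parental value was well above the highest clone, with a fold of 3.72 (log2 difference -1.90, SE 0.226, adjusted p = 0.00242, limma). Pdk1, which inactivates pyruvate dehydrogenase, was at 792, 905 and 763 against 1561 and 1221, 1.69-fold lower (log2 difference -0.76, SE 0.144, adjusted p = 0.0131, limma). Its call was lost without clone 12 (0.0566) and parental replicate 1 (0.0531).

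Pdk3, another kinase of the complex, was at 383, 474 and 472 in the clones, against 356 and 344 in the parental libraries. Every clone lay above, but the difference did not pass (log2 difference 0.33, adjusted p = 0.192, limma). Pfkfb3 and Pfkfb4, which make the activator of phosphofructokinase, did not pass either (log2 differences -0.17 and -0.39, 95% intervals -0.41 to 0.06 and -0.83 to 0.04). Pfkfb3 ranged from 2983 to 3538 in the clones and from 3516 to 3658 in the parental libraries, and Pfkfb4 from 208 to 263 and from 281 to 359.

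Neighbouring genes of the pathways were read from further lists. Of 15 HIF regulators and partners 14 were tested, 3 were lower and 0 were higher (5 had an unadjusted p under 0.05). That share of 21.4% was near the 16.0% of all genes tested. The median log2 difference was 0.18. Every clone lay above both parental libraries in 5 of the 14 genes and below them in 4. Among all genes tested these arrangements made up 24.5% and 25.8%. Hif3a and Cited2 were higher but did not pass (log2 differences 1.82 and 0.48, adjusted p = 0.129 and 0.0665, limma). Arnt, the partner of every HIF alpha subunit, was at 1427, 1243 and 1387 in the clones, against 2343 and 2695 in the parental libraries (log2 difference -0.90, SE 0.112, adjusted p = 0.00248, limma). Siah2, a ubiquitin ligase for Egln proteins, and Cul2, the scaffold of the ligase that degrades HIF alpha, were lower by log2 differences of -0.93 and -0.51 (adjusted p = 0.0131 and 0.0326, limma). Siah2 lost its call without clone 12 (0.0527) or parental replicate 1 (0.0519), and Cul2 without clone 12 (0.110), clone 18 (0.0800) or parental replicate 2 (0.165) and without a filter on low values (0.0751).

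Among 37 further HIF targets 30 were tested, 6 were lower and 3 higher, with a median log2 difference of -0.08. These calls made up 30.0% of the tested genes of the list, beside 16.0% of all genes tested (8.49% lower and 7.51% higher). Ak4, a mitochondrial adenylate kinase, was at 1350.5, 1325 and 1180 in the clones, against 2315 and 1973 in the parental libraries (log2 difference -0.74, adjusted p = 0.00660, limma). Tgfb3, a growth factor, was at 12.3, 3.17 and 6.15 against 79.2 and 72.1 (adjusted p = 0.00673, limma, and 0.0571 without parental replicate 2). Against this direction, Hmox1, the heme oxygenase that oxidative stress also induces, was at 872, 976 and 466 against 112 and 123, 6.21-fold higher (log2 difference 2.64, SE 0.315, adjusted p = 0.00319, limma).

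The lysyl hydroxylases that modify collagen, chosen after their values were seen, also split. Plod2 was at 265, 159 and 312 in the clones, against 896 and 673 in the parental libraries, and Plod1 was at 494, 510.4 and 549.8 against 261 and 332. Plod2 was lower and Plod1 higher (adjusted p = 0.0119 and 0.0138, limma).

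In the list of other glycolytic isoenzymes and regulators 16 of 28 genes were tested, 2 were higher and 2 lower, a share of 25.0% called beside 16.0% of all genes tested. Ldhb, the heart-type lactate dehydrogenase, had no read in any library, nor had Pdk4, Pklr, Hkdc1 or Ldhc, which with a floor of 3 counts allows up to 0.408 CPM in the smallest library. Pdk2, a further pyruvate dehydrogenase kinase, was at 71.4, 28.5 and 53.3 in the clones, against 0 and 2.90 in the parental libraries (adjusted p = 0.00571, limma). Pdp1, the phosphatase that reverses these kinases, was at 188, 198 and 193 against 381 and 370.1 (log2 difference -0.96, SE 0.145, adjusted p = 0.00560, limma). Slc2a9, a urate and hexose transporter, was lower with a log2 difference of -0.91 (adjusted p = 0.0141, limma, and 0.0541 without parental replicate 2).

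The pentose phosphate pathway branches from glycolysis to make NADPH and ribose. Of its 10 genes, all tested, 3 were higher and 0 lower, where 7.51% and 8.49% of all genes tested were, and the median log2 difference was -0.03. Taldo1, G6pdx and Pgd rose by log2 differences of 0.64, 0.42 and 0.57 (adjusted p = 0.0228, 0.0426 and 0.0439, limma). Taldo1 was at 2296, 2650.3 and 2671 in the clones, against 1885 and 1397 in the parental libraries. Without clone 12 these 3 genes did not pass (0.0515, 0.136 and 0.0972), nor without clone 18 (0.0699, 0.106 and 0.113) or parental replicate 2 (0.112, 0.153 and 0.181). Taldo1 and Pgd were also lost without clone 4 (0.0524 and 0.0975), and G6pdx without parental replicate 1 (0.0960) or with parental replicate 2 thinned (0.0547), and all 3 without a filter on low values (0.0692, 0.0726 and 0.104).

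Of 8 genes for entry of pyruvate into mitochondria and its use there, 0 passed with limma, beside 16.0% of all genes tested. None had an unadjusted p under 0.05. Pcx, pyruvate carboxylase, had the smallest p, at 65.2, 28.5 and 30.8 in the clones and 82.3 and 64.0 in the parental libraries (adjusted p = 0.162, limma). Brp44 (a subunit of the mitochondrial pyruvate carrier) and Pdhx (a component of the pyruvate dehydrogenase complex) had log2 differences of -0.40 and -0.25. In gluconeogenesis 2 of 6 genes were tested and 1 was called, beside 16.0% of all genes tested. G6pc3, the ubiquitous glucose-6-phosphatase, was higher (log2 difference 0.42, adjusted p = 0.0253, limma) while Pck2, a mitochondrial enzyme, was not called (0.516). G6pc3 lost the call without clone 12 (0.0791), parental replicate 1 (0.106) or parental replicate 2 (0.0705) and without a filter on low values (0.0529).

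**Figure D5:**
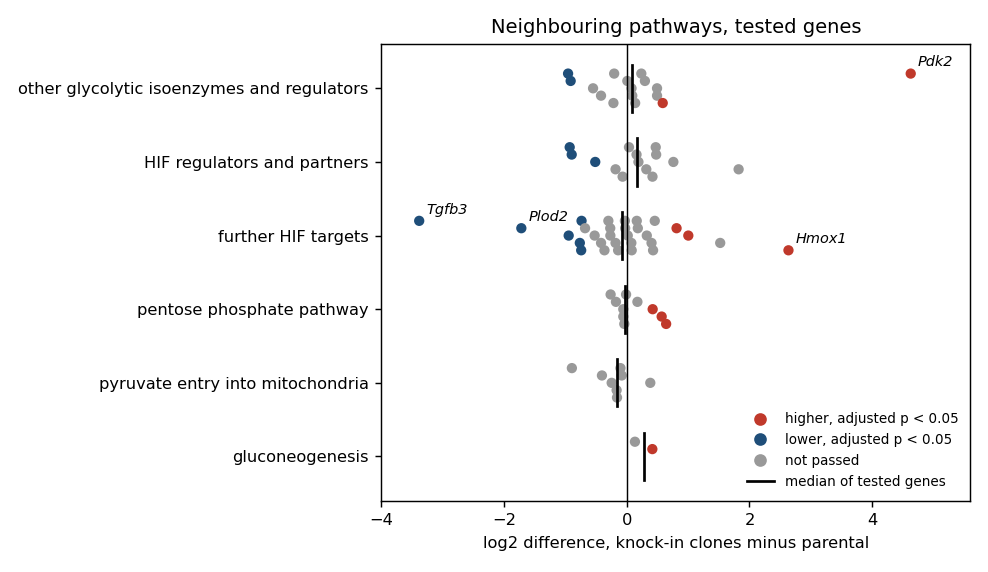
Log2 difference between knock-in clones and parental libraries for the tested genes of 6 neighbouring lists, with black bars at list medians and colour for the call; vertical offsets within a list only separate the points. The medians lie between -0.16 and 0.28, while single genes such as Hmox1, Pdk2, Plod2 and Tgfb3 lie far from zero.

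Markers of maturing cell types also differed between the groups in which these genes differed. In the mast cell and basophil list 5 of 7 tested genes were higher and 0 lower, beside 7.51% and 8.49% of all genes tested. Cpa3 did not pass (adjusted p = 0.225, limma), at 2748, 3139 and 4388 in the clones against 2450 and 386. With it the list summed to 10012 to 12611 in the clones and 2934 to 5357 in the parental libraries. Of its 11 genes, Fcer1a and Cma1 had no read in clone 4 or the parental libraries, Mcpt4 had reads in clone 18 alone, and the tryptase Tpsb2 had none in the parental libraries. In the neutrophil and monocyte list 3 of 8 tested genes were lower and 0 higher, beside 8.49% and 7.51% of all genes tested. Its sums were 13470.1 to 27672 in the clones and 47185 to 53822 in the parental libraries. Mpo was the largest part of each sum, at 13844.5, 20009 and 7872 against 42873 and 38610. It did not pass (adjusted p = 0.0629, limma). Neither did Ctsg or Csf1r, with log2 differences of 1.27 and -0.02. S100a8 and S100a9 had no read in any clone and at most 1.55 in a parental library. In the erythroid list 1 of 7 genes, Hbb-b1, was tested, and the others were too low. The list summed to 47.6 to 87.4 in the clones and 3.11 to 8.40 in the parental libraries. Hbb-b1 was the largest part in each clone, at 61.6, 25.4 and 51.3 in clones 12, 18 and 4. Hba-a1 was at 0 in all 5 libraries. The part of these lists in the glycolysis and hypoxia results was not tested.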

How the data were processed

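RNA of the 5 mouse libraries was prepared with RNeasy micro columns and NEBNext Ultra II kits per the labels' protocols. DESeq2, RSEM and STAR 2.6.1 are listed in the submitters' processing notes together with mm9 and hg19, with no step or species given. Annotation and use of strand are not stated in these sources. The authors deposited 1 signal value for each Ensembl gene in a library, its reads scaled by a size factor, as the values show: 100% of those above 0 were whole multiples of the library's smallest value within 0.01. Genes with a mean of at least 10 (13132 of 37991) were tested with limma 3.58.1 (R 4.3.3; trend, robust) on log2(value + 1), all 5 libraries in 1 fit, with Benjamini-Hochberg adjustment over all genes tested. For low genes this scale understates a fold change.

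Members were matched by symbol, and gene positions and sequences are not used here. Named in full were called members, 11 fixed members, and up to 3 genes of smallest p per further list. Members and lists were chosen with earlier results of these data known. Stra13 was left out because another gene carries that symbol in the files, and the markers Spi1 and Tfr2 were not matched. The alternatives were pseudocounts of 0.5 and 5, a filter at 50 or none, TMM or library total scaling, edgeR 4.0.16 and DESeq2 1.42.0 on recovered reads, parental replicate 2 thinned, and each library left out. With 1 parental library left, that library is assumed to vary like the clones. P-values measure the spread between these libraries, which may be technical for the parental pair. The fits were tested on simulated data.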

Additional observations from a re-analysis of the deposited data

How the results depend on the processing

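The direction of the 15 called members did not reverse in any of the 14 alternatives, and 5 of them (Vegfa, Ankrd37, P4ha1, Bnip3 and Slc16a3) passed in each. Without a filter on low values 9 members passed, 0 of them higher, with 1 glycolytic enzyme (0 higher, 1 lower). Of the 15 calls, edgeR, DESeq2, TMM scaling, both other pseudocounts, the filter at 50 and the thinned library each kept 15, and library total scaling kept 14. When single libraries were left out, all genes called ranged from 990 to 2115 (468 to 1230 higher, 400 to 1126 lower), members from 7 to 13 (0 to 6 higher, 6 to 12 lower), glycolytic enzymes from 1 to 4 (0 to 1 higher, 0 to 4 lower) and their median log2 difference from -0.50 to -0.13, and hypoxia targets called higher from 0 to 2 and changed from 4 to 6. Over the same fits the log2 difference changed sign for Gpi1 (-0.078 to 0.374), Egln3 (-0.51 to 1.20), Ddit4 (-0.32 to 0.86), Ero1l (-0.42 to 1.33) and Pck2 (-0.054 to 0.322), negative only without parental replicate 2, and for Pfkl (-0.55 to 0.17), positive only without parental replicate 1. The cause was not tested. No paired analysis was possible because clone numbers and parental replicate numbers share no meaning and no number. Precision is limited by 3 clones and 2 parental libraries, and Adm, Eno2, Epas1 and P4ha2 had too few reads to test.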
